A study of Rattus norvegicus with 17 samples.

Results

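The 8 genes described here are the cyclin-dependent kinase (CDK) inhibitors Cdkn1b, Cdkn1a, Cdkn1c and Cdkn2c, the D cyclins Ccnd1, Ccnd2 and Ccnd3, and the retinoblastoma gene Rb1, out of 14506 genes measured on rat gene expression arrays. They were chosen by symbol as the G1 checkpoint around p27Kip1, the gene mutated in these rats. All 8 were found, each by 1 probe set, and no filter on low values was applied. The series holds 17 arrays of tumour tissue from p27Kip1-mutant rats, with 4 samples given NVP-BEZ235 at 30 mg/kg, 6 given NVP-BEZ235 at 20 mg/kg and 7 controls given 20 mg/kg PEG. NVP-BEZ235 is an inhibitor of both PI3K and mTOR kinases, and PEG stands in the labels as the control treatment. Every rat was 8 months old and of the strain Sprague-Dawley white eye/Wistar-Kyoto. The 30 mg/kg group held 1 male sample and 3 female samples, the 20 mg/kg group 2 male and 4 female, and the control group 2 male and 5 female. The p27Kip1 mutation was carried by the controls as well, and no wild-type samples were analysed here, so the comparisons are of drug and not of genotype. The sample labels call the rats homozygous whereas the series text calls them heterozygous. The length of treatment is not given in the sources used here, and the labels do not state that the samples came from separate animals, so the p-values measure only the spread between these samples.

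By the labels the tissue is pituitary adenoma, but the title of the series has pheochromocytoma, which arises from chromaffin cells of the adrenal medulla. The arrays carried adrenal markers: the mean log2 value of 6 measured chromaffin markers was between 10.71 and 11.90 in the 17 arrays, and that of 7 adrenal cortex markers between 10.11 and 11.66. The mean of 8 pituitary hormone and pituitary factor genes lay between 3.96 and 4.85, and 7 of these 8 genes were below the array median on average. The tissue is therefore called adrenal by its markers below. Because these are bulk samples, fewer cells of a type and less RNA per cell cannot be told apart.

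In the G1 phase, D-type cyclins bind CDK4 and CDK6 and start the phosphorylation of the retinoblastoma protein, which otherwise holds E2F transcription factors in check. Proteins of the Kip family (p21, p27 and p57) bind cyclin and CDK complexes, and INK4 proteins such as p18 bind CDK4 and CDK6 directly. PI3K and mTOR signalling is known to act on both arms, by favouring cyclin D synthesis and stability and by restraining FOXO factors that activate Cdkn1b. Rats that lack functional p27 are known for multiple endocrine tumours, including those of the adrenal medulla.

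The values are log2 expression values after robust multi-array averaging (RMA) by the submitters, in which a difference of 1 is a doubling of signal. The 75th percentile of an array lay between 6.85 and 7.10 and its median between 4.95 and 5.11. Cdkn1b stood between the 85.7th and 93.9th percentiles of its array, Ccnd3 between 85.3 and 93.9, Ccnd2 between 76.8 and 93.8, Cdkn1c between 74.9 and 92.1, Cdkn2c between 75.3 and 91.0, and Rb1 between 75.6 and 88.6. Ccnd1 was the dimmest, between 52.1 and 74.3, and Cdkn1a had the widest span, between 56.8 and 93.5. By their titles, the 30 mg/kg samples carry replicate numbers 1 to 4, the 20 mg/kg samples 5 to 10 and the controls 1 to 7. Dose and title numbers therefore cannot be told apart when the doses are set against each other directly, and each dose was also compared with the controls of its own numbers. Arrays at 20 mg/kg correlated with controls 5 to 7 at a median r of 0.98 and with controls 1 to 4 at 0.97, while arrays at 30 mg/kg correlated with controls 1 to 4 at 0.96 and with controls 5 to 7 at 0.95. Differences were tested two-sided with limma, with sex as a term, and Benjamini-Hochberg adjustment ran over all 14506 genes. A gene was called when its adjusted p was under 0.05.

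**Figure D1:**
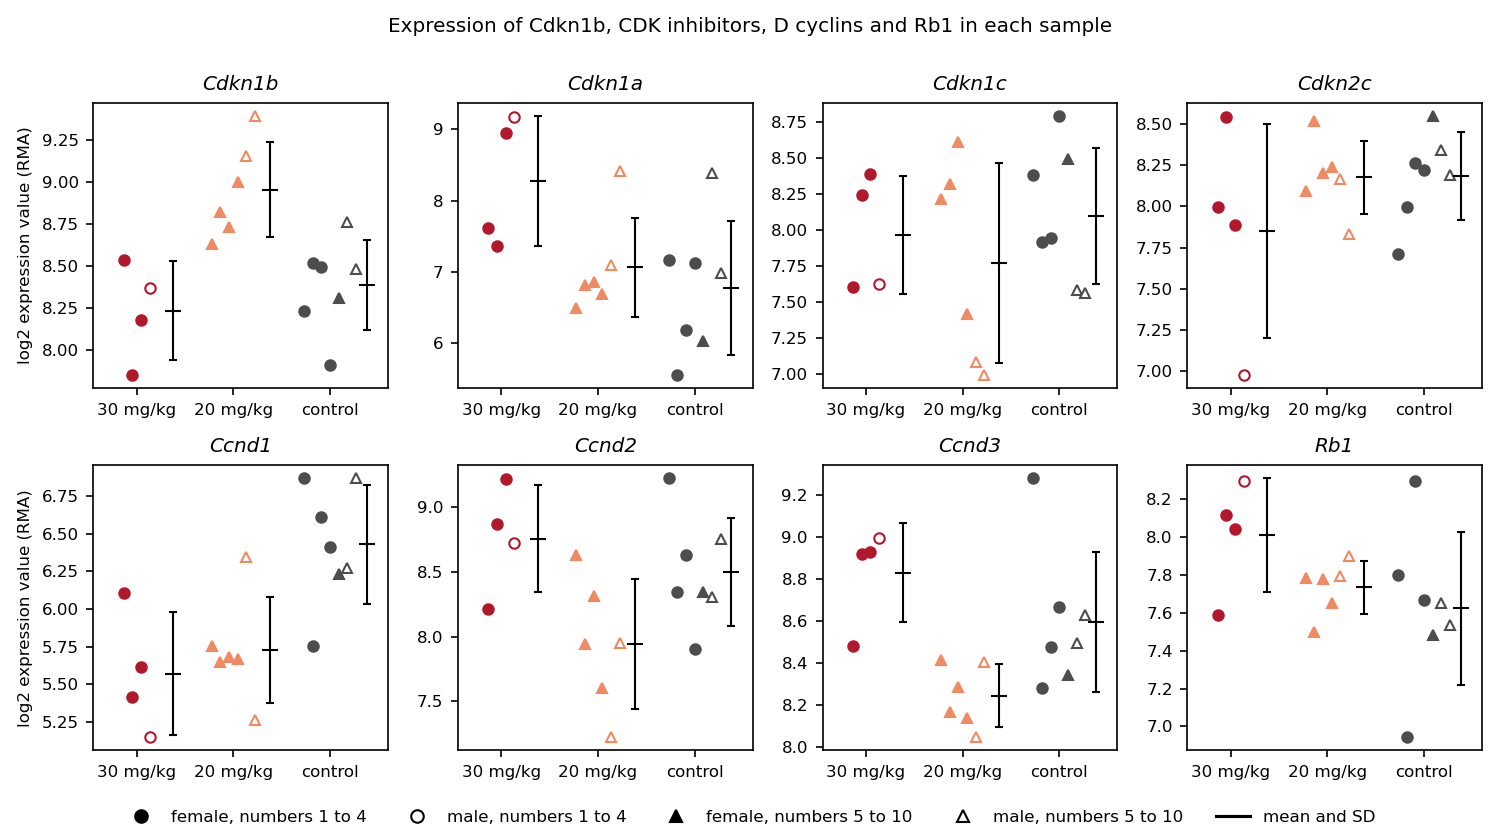
Log2 expression value (y axis, a separate range in each panel) of the 8 genes in each of the 17 samples, by group (x axis: 30 mg/kg, 20 mg/kg, control). Circles are title numbers 1 to 4, triangles numbers 5 to 10, open symbols male samples, and the bars give the mean and SD of each group. Points are spread sideways only to keep them apart. Cdkn1b is highest at 20 mg/kg, the 2 highest Cdkn1a values are at 30 mg/kg, and Ccnd1 is below the control mean in all 10 treated samples.

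Of the 3 Kip family inhibitors, the mutated gene itself and Cdkn1a were called between the 2 dose groups, which carry different title numbers. Neither passed the threshold when each dose was set against the controls of its own numbers. Cdkn1b, which encodes p27Kip1, was higher at 20 mg/kg than in controls and was not called at 30 mg/kg. Its values were 8.54, 7.85, 8.18 and 8.37 at 30 mg/kg in replicates 1 to 4. At 20 mg/kg they had a lowest value of 8.63, a median of 8.91 and a highest value of 9.39. In the controls the lowest was 7.91, the median 8.48 and the highest 8.76. All 6 samples at 20 mg/kg lay above the control mean and 4 of them above every control, whereas all 4 samples at 30 mg/kg lay inside or below the control range. These signals come from the mutant rats' own transcript, and the probe set does not by itself tell a mutant from a wild-type allele.

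In the fit of 20 mg/kg against control, Cdkn1b rose by 0.55 ± 0.13 (SE) on the log2 scale, a 1.47-fold difference with a 95% interval from 1.22 to 1.76 (limma adjusted p = 0.042). It was the 1 member called of 8, where 1.18% of all genes were called. Against controls 5 to 7 alone the difference was 0.58 ± 0.12 with an adjusted p of 0.055. That comparison called 1.19% of all genes and 0 of the 8 members. It had 3 members at an unadjusted p under 0.05, beside 16.2% of all genes. The call at 20 mg/kg was lost in 10 of 17 fits that each left out 1 sample, over which the adjusted p ran between 0.027 and 0.12 and the difference between 0.49 and 0.60. These were the fits without control replicates 1, 4, 6 or 7, without 30 mg/kg replicate 3, or without any of 20 mg/kg replicates 6 to 10.

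At 30 mg/kg Cdkn1b differed from control by -0.14 ± 0.14 (adjusted p = 0.62). Set directly against each other, the doses did not overlap, but the share of all genes without overlap between them was not counted. Cdkn1b was lower at 30 mg/kg than at 20 mg/kg by a log2 difference of -0.69 ± 0.15 (adjusted p = 0.0098). This was 1 of 3 members called in that comparison, in which 12.1% of all genes were called. The call was lost without 30 mg/kg replicate 4 (adjusted p = 0.058) and kept without each of the other 16 samples. When each dose was first set against the controls of its own title numbers, the difference between the dose effects was -0.70 ± 0.24, of like size, with an unadjusted p of 0.011 and an adjusted p of 0.67. That test called 0% of all genes and 0 members, with 971 genes at an unadjusted p under 0.05.

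The promoter of Cdkn1b is known from human cells to carry CCAAT boxes upstream of its start site, and forkhead factors are known activators of the gene. In the 300-base RefSeq promoter window of rat build GRCr8, searched on both strands, the letters CCAAT were found at 2 places, both shown because they lie in the promoter window of the mutated gene. Both stretches lie on the plus strand, at chr4:169491343-169491372 and chr4:169491423-169491452. The capitals mark the box, which the second stretch holds on its other strand, and the matches span positions -148 to -144 and -68 to -64 from the start site on which the window is built. The RefSeq gene record of Cdkn1b begins further upstream than that start site, so both stretches lie inside the annotated gene.
Cdkn1b upstream box: cccggcgcccagaCCAATggagctcctcct
Cdkn1b downstream box: cttccaccgccatATTGGgcaactaaaaaa
The box occurred in 37.49% of 33469 such windows and in 2 of the 5 members with a window (Cdkn1b and Ccnd3). The forkhead motif GTAAACA occurred in 3.78% of all windows and in 0 of 5 member windows. The 5 genes with a window are Cdkn1b, Cdkn1a, Cdkn2c, Ccnd3 and Rb1.

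Cdkn1a, which encodes p21 and is the classical transcriptional target of p53 among CDK inhibitors, was the member with the largest difference at 30 mg/kg. The 4 samples had log2 values of 7.62, 7.37, 8.95 and 9.17 in replicates 1 to 4. The 20 mg/kg samples had a lowest value of 6.5, a median of 6.84 and a highest value of 8.41. The controls had a lowest value of 5.55, a median of 6.99 and a highest value of 8.39. Replicates 3 and 4 at 30 mg/kg were above every other array of the series, and replicates 1 and 2 lay within the control range. The highest 20 mg/kg sample (replicate 10) and the highest control (replicate 6) were both male.

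Cdkn1a rose at 30 mg/kg by 1.54 ± 0.36 on the log2 scale relative to control, a 2.90-fold difference with a 95% interval from 1.71 to 4.91 (limma adjusted p = 0.015). Cdkn1a and Ccnd1 were the 2 members called at 30 mg/kg, where 8.55% of all genes were called. At 20 mg/kg its difference from the same controls was 0.23 ± 0.32 (adjusted p = 0.75). The direct difference between 30 mg/kg and 20 mg/kg was 1.31 ± 0.37 (adjusted p = 0.032). That call was lost in 6 of 17 fits that left out 1 sample, those without 30 mg/kg replicate 3 or 4 or without 20 mg/kg replicate 5, 6, 8 or 9, with an adjusted p of up to 0.11. Within title numbers the 4 samples at 30 mg/kg did not overlap with controls 1 to 4, which had 7.16, 5.55, 6.20 and 7.13. How many of all genes were likewise without overlap in this comparison was not counted. The fitted difference there was 1.47 ± 0.49 with an adjusted p of 0.38. That fit called 0.11% of all genes and 0 of 8 members, with 2 members at an unadjusted p under 0.05, beside 9.49% of all genes. In that fit 30 mg/kg replicate 4, the 1 male among numbers 1 to 4, is absorbed by the sex term, which leaves 3 treated samples against 4 controls. The difference between the dose effects within title numbers was 1.12 ± 0.62 (adjusted p = 0.78). The call against control was lost without 30 mg/kg replicate 3 or replicate 4, each time with a difference of at least 1.21 and an adjusted p of at most 0.061, and kept without each of the other 15 samples.

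The Cdkn1a window holds 1 match to the 10-base p53 half-site, shown because Cdkn1a is the member with the largest change. It lies on the plus strand at chr20:7150721-7150750 of GRCr8, with the match in capitals at positions -201 to -192 from the start site of its window and upstream of the annotated gene.
Cdkn1a p53 half-site: tggctttcagGAACATGTCTtgacttgttc
A match to this half-site occurred in 7.98% of all 33469 windows and in 3 of the 5 member windows (Cdkn1a, Cdkn2c and Rb1). The other 8 measured p53 targets gave 0 calls by limma at 30 mg/kg, 0 of them at an unadjusted p under 0.05, and all 8 had a negative log2 difference there, with a median of -0.23 beside 0.01 for all genes. Mdm2, which encodes the ubiquitin ligase that degrades p53 and is itself a p53 target, differed by -0.04 ± 0.14 at 30 mg/kg. Within numbers 1 to 4 the p53 targets' median was -0.12, with 3 positive and 5 negative.

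Cdkn1c encodes p57Kip2, the imprinted Kip family member known for its role in adrenal development. It was not called for treatment: the difference was -0.16 ± 0.22 at 30 mg/kg (adjusted p = 0.73) and -0.29 ± 0.20 at 20 mg/kg (adjusted p = 0.48). Against the controls of the same title numbers Cdkn1c differed by -0.18 ± 0.27 at 30 mg/kg (adjusted p = 0.90) and -0.45 ± 0.22 at 20 mg/kg (adjusted p = 0.34). Its larger difference was between sexes. Male samples had a lowest value of 6.99, a median of 7.56 and a highest value of 7.63 in 5 arrays, and female samples 7.42, 8.28 and 8.79 in 12 arrays. All 5 males lay below the female mean, and the male and female ranges met only at the low end, where 2 female samples lay below the highest male. The fitted male minus female difference was -0.82 ± 0.19, 0.57-fold, with an adjusted p of 0.066. It passed the threshold without 30 mg/kg replicate 4 or without 20 mg/kg replicate 8, and over all 17 such fits the adjusted p ran between 0.036 and 0.21. The mean of 7 adrenal cortex markers lay between 10.11 and 10.87 in males and between 10.37 and 11.66 in females. All 7 cortex markers had a negative male minus female difference (median -0.27, beside -0.01 for all genes), and all 10 mitosis genes had a positive one (median 0.31). Of 8 endothelial markers 7 were negative (median -0.23), and of 7 fibroblast and pericyte markers 6 were negative (median -0.17). The medians of the other 5 marker lists lay between -0.17 and 0.08, and limma called 0 of 63 marker entries between sexes, with 14 at an unadjusted p under 0.05, beside 15.3% of all genes. The part of these shifts in the sex difference of Cdkn1c was not tested. The mean of the mitosis genes lay between 5.39 and 5.65 in control males. It lay between 4.26 and 4.42 in treated males and between 4.20 and 4.84 in females. Apart from 30 mg/kg replicate 4, every male carried a title number from 5 to 10. Sex and title numbers therefore cannot be fully told apart in the male minus female differences.

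The other Kip genes had positive male minus female differences, 1.09 ± 0.40 for Cdkn1a (adjusted p = 0.22) and 0.39 ± 0.18 for Cdkn1b (adjusted p = 0.31). None of the 8 members was called between sexes, where 0.241% of all genes were called. An unadjusted p under 0.05 was found there for 3 members and for 15.3% of all genes. In the treatment by sex interaction 0.00689% of all genes and 0 members were called. In that test 0 members had an unadjusted p under 0.05, beside 6.56% of all genes. The interaction rests on 3 treated and 2 control males.

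**Figure D2:**
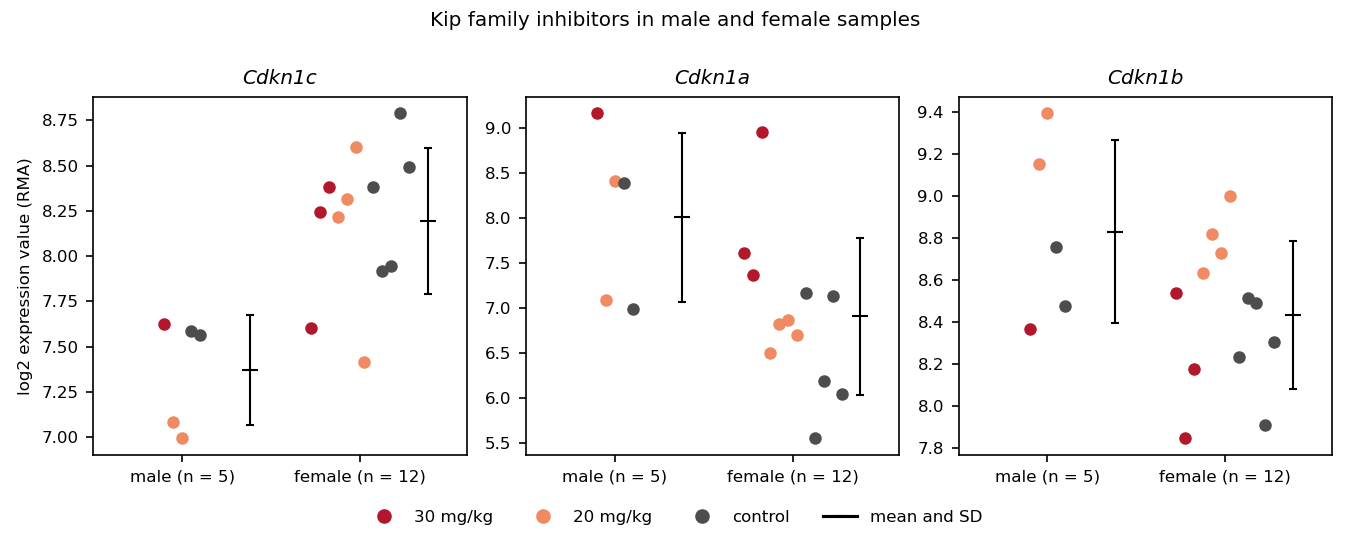
Log2 expression values (y axis, a separate range in each panel) of the 3 Kip family genes in 5 male and 12 female samples (x axis), coloured by group, with the mean and SD of each sex. Cdkn1c is low in all 5 males, with a mean of 7.37 in males and 8.19 in females, and no sex difference of the 3 genes passed the adjusted threshold.

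The INK4 family was represented by Cdkn2c, which encodes p18 and inhibits CDK4 and CDK6. It had values of 8.00, 8.54, 7.88 and 6.97 in replicates 1 to 4 at 30 mg/kg. The 20 mg/kg samples ran between 7.83 and 8.52 and the controls between 7.71 and 8.55. The 6.97 of 30 mg/kg replicate 4 was the lowest of the 17 arrays, and the other 16 samples lay between 7.71 and 8.55. The difference was -0.34 ± 0.21 at 30 mg/kg (adjusted p = 0.33) and 0.01 ± 0.18 at 20 mg/kg (adjusted p = 0.99). In fits that each left out 1 sample, the difference at 30 mg/kg ran between -0.55 and -0.06. Against the controls of the same title numbers it was 0.09 ± 0.21 at 30 mg/kg (adjusted p = 0.94), where the sex term absorbs replicate 4. At 20 mg/kg it was -0.28 ± 0.13 there (adjusted p = 0.32).

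Of the 3 D cyclins, Ccnd1 fell over both doses together, and its log2 differences at the 2 doses were close. Ccnd1 encodes cyclin D1, the activating partner of CDK4 and CDK6 whose synthesis follows growth factor signals. Its log2 values were 6.11, 5.42, 5.61 and 5.15 in replicates 1 to 4 at 30 mg/kg. At 20 mg/kg the lowest was 5.26, the median 5.68 and the highest 6.35. In the controls the lowest was 5.76, the median 6.41 and the highest 6.87. All 10 treated samples lay below the control mean, and 7 of them lay below the lowest control, replicate 2.

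Across both doses Ccnd1 differed from control by -0.77 ± 0.18 on the log2 scale, 0.59-fold with a 95% interval from 0.45 to 0.76 (limma adjusted p = 0.042). It was the 1 member called of 8, where 1.48% of all genes were called. The differences by dose, which share the same controls, were -0.86 ± 0.23 at 30 mg/kg (adjusted p = 0.027) and -0.70 ± 0.20 at 20 mg/kg (adjusted p = 0.088). Against the controls of the same title numbers they were -0.70 ± 0.28 at 30 mg/kg (adjusted p = 0.48) and -0.67 ± 0.22 at 20 mg/kg (adjusted p = 0.17). The difference of 30 mg/kg minus 20 mg/kg was -0.16 with a 95% interval from -0.65 to 0.34. The call over both doses was kept in 5 of 17 fits that left out 1 sample, those without control replicate 2 or 5, 30 mg/kg replicate 1, or 20 mg/kg replicate 5 or 9, and the difference over all 17 ran between -0.88 and -0.68. The call at 30 mg/kg was lost without control replicate 7 or without 30 mg/kg replicate 2, 3 or 4.

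Ccnd2 and Ccnd3 were not called against control at either dose, and both had opposite signs at the 2 doses. Ccnd2, the D cyclin that is under FOXO repression in several cell types, had 8.22, 8.87, 9.22 and 8.73 in replicates 1 to 4 at 30 mg/kg. The 20 mg/kg samples had a lowest value of 7.22, a median of 7.95 and a highest value of 8.63, and the controls had 7.90, 8.34 and 9.23. All 4 samples at 30 mg/kg stood above the 20 mg/kg mean and inside the control range, and 2 samples at 20 mg/kg lay below the lowest control. Its difference was 0.25 ± 0.26 at 30 mg/kg (adjusted p = 0.62) and -0.55 ± 0.23 at 20 mg/kg (adjusted p = 0.23). Between 30 mg/kg and 20 mg/kg it was 0.80 ± 0.27 (adjusted p = 0.059), and it passed the threshold in 4 of 17 fits that left out 1 sample, those without control replicate 1 or 4, 30 mg/kg replicate 1 or 20 mg/kg replicate 5. Against the controls of the same title numbers Ccnd2 differed by 0.24 ± 0.34 at 30 mg/kg (adjusted p = 0.89) and -0.62 ± 0.26 at 20 mg/kg (adjusted p = 0.28). The difference between these dose effects was 0.89 ± 0.45 (adjusted p = 0.77).

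Ccnd3, which encodes cyclin D3, the third activator of CDK4 and CDK6, had values of 8.48, 8.92, 8.93 and 8.99 in replicates 1 to 4 at 30 mg/kg. The 20 mg/kg samples had a lowest value of 8.05, a median of 8.23 and a highest value of 8.42, and the controls had 8.28, 8.50 and 9.28. The 30 mg/kg and 20 mg/kg samples did not overlap, and the control range crossed both. As for Cdkn1b, the share of all genes without such overlap was not counted. Ccnd3 was higher at 30 mg/kg than at 20 mg/kg by 0.59 ± 0.17 on the log2 scale (adjusted p = 0.033). Within title numbers the difference between the dose effects was 0.34 ± 0.27 (adjusted p = 0.85). Against control the difference was 0.23 ± 0.16 at 30 mg/kg (adjusted p = 0.42) and -0.35 ± 0.15 at 20 mg/kg (adjusted p = 0.22). The call between doses was lost without 30 mg/kg replicate 2, 3 or 4 or without 20 mg/kg replicate 6, 7, 8 or 9.

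**Figure D3:**
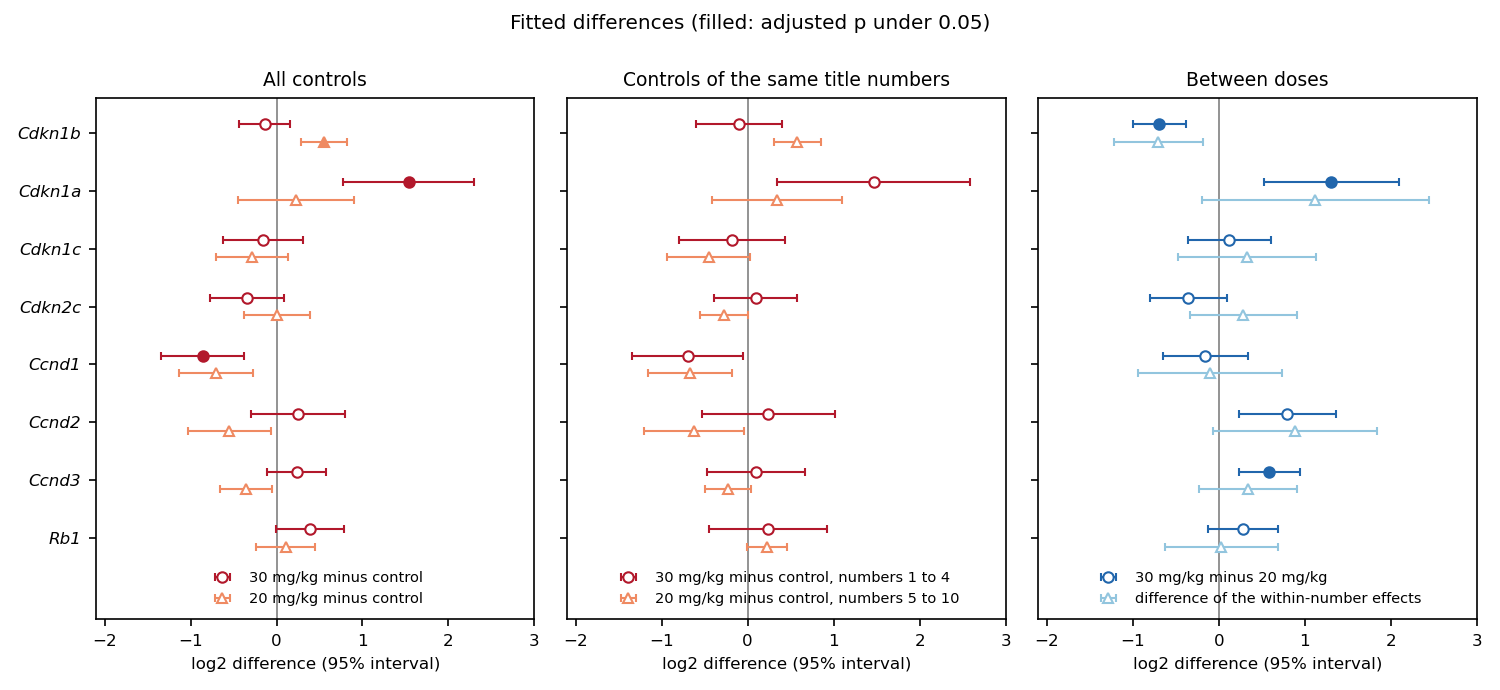
Fitted log2 differences of the 8 genes (x axis, with 95% intervals; genes run down the y axis) against all 7 controls (left), against the controls of the same title numbers (middle) and between doses (right). Filled symbols mark an adjusted p under 0.05, and the middle panel has 0 of them. Ccnd1 lies left of 0 at both doses in both control sets, and Cdkn1b lies right of 0 at 20 mg/kg.

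Rb1 encodes the pocket protein that cyclin D kinases phosphorylate. Its log2 values were 7.59, 8.12, 8.04 and 8.29 in replicates 1 to 4 at 30 mg/kg. The 20 mg/kg samples ran between 7.50 and 7.90 and the controls between 6.94 and 8.29. Controls 2 and 3 set both ends of the control range, and the other 5 controls lay between 7.48 and 7.80. The difference was 0.39 ± 0.19 at 30 mg/kg (adjusted p = 0.21) and 0.10 ± 0.17 at 20 mg/kg (adjusted p = 0.78). Against the controls of the same title numbers it was 0.24 ± 0.30 at 30 mg/kg (adjusted p = 0.87) and 0.23 ± 0.10 at 20 mg/kg (adjusted p = 0.31).

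The genes whose values ran most like each member over the 17 samples are given without a test, since all samples share groups, title-number sets and tissue makeup. For Cdkn1b these were Nub1 (Pearson r = 0.93), Eif4a2 (0.92) and Ccng2, an unconventional cyclin known as a FOXO target (0.92). For Cdkn1a they were Golt1b (0.91), the growth factor receptor gene Igf1r (0.87) and Rgs2 (0.87). For Ccnd1 they were Edem2 (0.86), the macrophage-expressed gene Mpeg1 (0.83) and Maged2 (0.81). After group means were taken out, r was 0.84 for Ccng2 with Cdkn1b, 0.85 for Igf1r with Cdkn1a and 0.60 for Mpeg1 with Ccnd1. The nearest genes of the remaining members were Stom for Ccnd2 (0.88), Cobll1 for Ccnd3 (0.89), Acot1 for Cdkn1c (0.87), Rnf32 for Cdkn2c (0.92) and Rnf10 for Rb1 (0.87). The next nearest were Ptpre and St3gal4 for Ccnd2, Dstn and Sc5d for Ccnd3, Ndufa3 and Pdlim4 for Cdkn1c, Rnf208 and Fundc1 for Cdkn2c, and Gpr180 and Mapre3 for Rb1.

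Over both doses the calls in the wider G1 machinery were near the share of all genes. Among 11 CDK and cyclin partners, 3 other CDK inhibitors, 7 pocket protein and E2F genes, 13 genes of p27 and cyclin D turnover, 7 transcription factors acting on Cdkn1b or Ccnd1 and 8 further p53 targets, 0 of 49 were called in treated against control samples by limma, beside 1.48% of all genes. An unadjusted p under 0.05 was found for 11 of these 49 and for 14.4% of all genes. The median log2 differences of these lists were 0.00, -0.10, -0.03, -0.09, 0.18 and 0.00, beside 0.00 for all genes. Of 15 measured S-phase targets of E2F, 1 fell. This was Rrm2, the regulatory subunit of ribonucleotide reductase, whose values were between 3.90 and 4.39 at 30 mg/kg and between 3.79 and 4.38 at 20 mg/kg, against 4.40 to 6.65 in controls. No treated sample overlapped the controls, and the difference was -1.31 ± 0.23 (adjusted p = 0.011). The gap was narrow, from 4.39 to 4.40, and the share of all genes without overlap was not counted. All treated values of Rrm2 lay below the array medians, which were between 4.95 and 5.11. Within numbers 5 to 10 Rrm2 differed by -2.09 ± 0.21 (adjusted p = 0.0026). Within numbers 1 to 4 Rrm2 was not called, in a fit that called 0.11% of all genes. The median of the 15 E2F targets was -0.01 over both doses, with 7 positive and 8 negative. At 20 mg/kg within numbers 5 to 10 it was -0.24, with 2 positive and 13 negative, beside 0.01 for all genes, and at 30 mg/kg within numbers 1 to 4 it was 0.03, with 8 positive and 7 negative.

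The members of the other lists with the smallest p did not pass. Among kinases and cyclins they were Cdk1, the mitotic kinase, at -0.72 ± 0.21 (adjusted p = 0.10), Cdk6, a D cyclin partner, at -0.72 ± 0.23 (adjusted p = 0.13) and Ccna2, the S-phase cyclin, at -0.24 ± 0.09 (adjusted p = 0.21). E2f5 stood at 0.71 ± 0.18 (adjusted p = 0.056), E2f3 at -0.63 ± 0.25 (adjusted p = 0.26) and E2f7 at -0.19 ± 0.09 (adjusted p = 0.34). Among turnover genes, Cul1, the scaffold of the SCF ubiquitin ligase, stood at 0.24 ± 0.09 (adjusted p = 0.19), Fbxo31, a cyclin D1 receptor of that ligase, at 0.40 ± 0.19 (adjusted p = 0.35) and Cks1b, the cofactor for p27 recognition, at -0.46 ± 0.23 (adjusted p = 0.36). Of the transcription factors, Myc stood at 0.38 ± 0.14 (adjusted p = 0.20), Ctnnb1 at 0.29 ± 0.14 (adjusted p = 0.34) and Foxo3 at 0.30 ± 0.15 (adjusted p = 0.36). The p53 targets Phlda3, Gadd45a and Bax stood at -0.47, -0.17 and 0.10, and the inhibitors Cdkn3, Cdkn2a and Cdkn2b at -0.35, -0.10 and -0.02, with adjusted p of at least 0.32 for each of these 6.

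At 30 mg/kg against control more of these genes passed, beside 8.55% of all genes. The called genes are all named here, and Cdk7, Skp1 and Foxo1 were added after their values were seen. The D cyclin partner Cdk6 fell by 1.01 on the log2 scale (adjusted p = 0.028) and the CDK-activating kinase Cdk7 fell by 0.72 (adjusted p = 0.012). E2f3, an activating E2F, fell by 1.05 (adjusted p = 0.028), while E2f5, a repressive one, rose by 0.94 (adjusted p = 0.011). Skp1, a core subunit of the ligase that marks p27 for degradation, fell by 0.49 (adjusted p = 0.028). The transcription factor genes Ctnnb1 (0.56, adjusted p = 0.025), Myc (0.59, adjusted p = 0.028) and Foxo1 (0.36, adjusted p = 0.035) rose, 3 of 7 in that list, whose median was 0.36 beside 0.01 for all genes. Rrm2 fell by 1.21 (adjusted p = 0.019). Within numbers 1 to 4, limma called 0 of 64 list entries, beside 0.11% of all genes, and 5 had an unadjusted p under 0.05, beside 9.49% of all genes.

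At 20 mg/kg against control Rrm2 alone of these lists was called, by -1.39 ± 0.26 (adjusted p = 0.022), beside 1.18% of all genes. Within numbers 5 to 10, Cdk1 (-1.28, adjusted p = 0.014), Cdkn3, which encodes a phosphatase of CDKs (-1.10, adjusted p = 0.012), and Cks1b (-0.66, adjusted p = 0.024) fell as well. That comparison called 1.19% of all genes. Its reference was controls 5 to 7, in which the mitosis genes had a mean of 5.26, beside 4.57 in controls 1 to 4.

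Between 30 mg/kg and 20 mg/kg the calls were 3 lower of 11 CDK and cyclin partners, 2 lower of 13 turnover genes, 2 lower of 8 p53 targets and 2 higher of 15 E2F targets, beside 12.1% of all genes. These genes are named after their values were seen. The D cyclin partner Cdk4 differed by -0.99 ± 0.21 (adjusted p = 0.0094). The other lower genes were Cdk7, Mnat1, Rbx1, Skp1, Sesn1 and Bax, and the higher ones Mybl2 and Mcm2. Dose and title numbers cannot be told apart in this comparison. List means follow for 30 mg/kg, 20 mg/kg, controls 1 to 4 and controls 5 to 7. They were 5.83, 6.07, 5.98 and 6.31 for CDK and cyclin partners and 7.22, 7.53, 7.30 and 7.58 for turnover genes. For p53 targets they were 6.87, 7.24, 6.94 and 7.42, and for E2F targets 5.63, 5.63, 5.63 and 5.94.

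**Figure D4:**
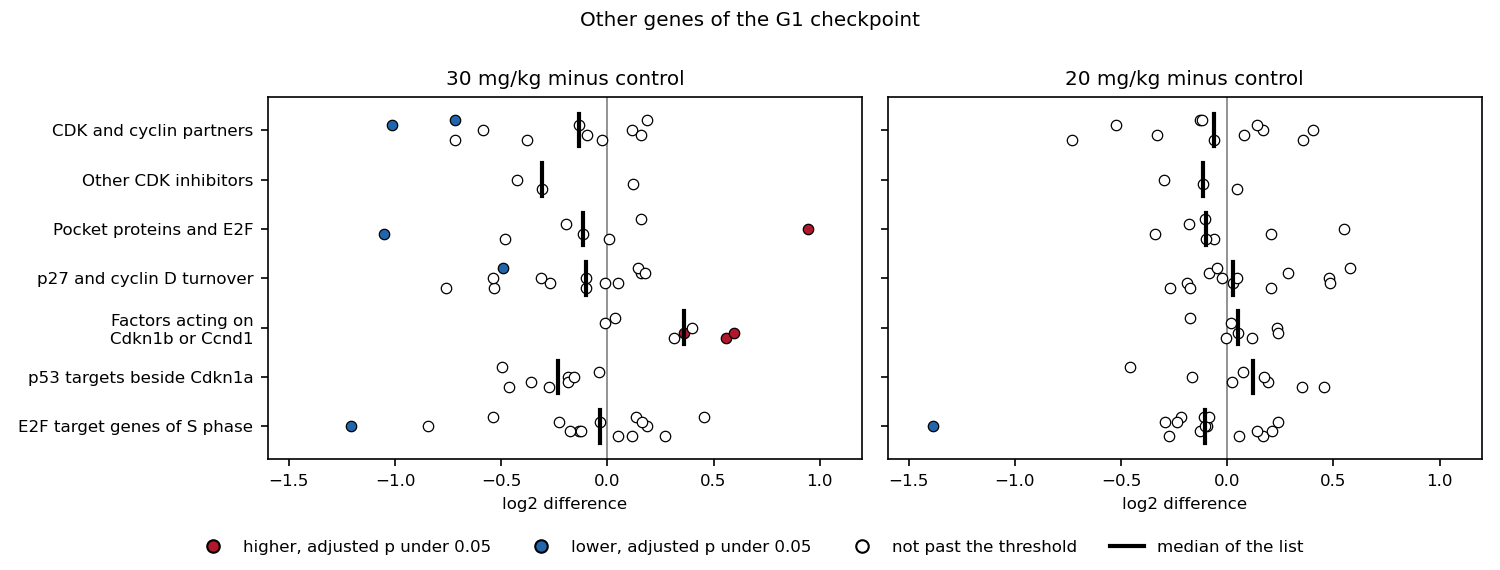
Log2 difference from control (x axis) of each measured gene of 7 lists around the G1 checkpoint (y axis), at 30 mg/kg (left) and 20 mg/kg (right). Filled points passed an adjusted p of 0.05, red for higher and blue for lower, and the bar is the list's median. At 30 mg/kg 4 genes are marked higher and 5 lower, and at 20 mg/kg Rrm2 alone is marked.

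Markers of cell types also differed between the dose groups, which carry different title numbers. Mean values follow for 30 mg/kg, 20 mg/kg, controls 1 to 4 and controls 5 to 7. They were 10.99, 10.47, 11.15 and 10.68 for adrenal cortex markers and 6.46, 6.78, 6.70 and 6.98 for macrophage markers. For endothelial markers they were 8.22, 7.71, 7.71 and 7.41, and for chromaffin markers 11.22, 11.67, 11.61 and 11.50. Fibroblast and pericyte markers had 7.46, 7.58, 7.94 and 8.00. The mean of 8 endothelial markers lay between 8.18 and 8.27 at 30 mg/kg, between 7.57 and 7.94 at 20 mg/kg and between 7.27 and 7.96 in controls, and 4 of 8 were called higher at 30 mg/kg. The means of the 7 adrenal cortex markers lay between 10.61 and 11.45 at 30 mg/kg, between 10.11 and 10.88 at 20 mg/kg and between 10.51 and 11.66 in controls. Those of the 6 chromaffin markers lay between 10.71 and 11.73 at 30 mg/kg, between 11.47 and 11.90 at 20 mg/kg and between 11.24 and 11.75 in controls. Against control at 30 mg/kg, 1 of 6 chromaffin, 2 of 7 macrophage, 2 of 7 fibroblast and pericyte and 2 of 6 lymphocyte markers and 3 of 10 mitosis genes were called lower, beside 8.55% of all genes. The chromaffin list had 4 positive and 2 negative differences there, with a median of 0.05. The medians were -0.24 for macrophage, -0.26 for fibroblast and pericyte, -0.47 for lymphocyte and -0.68 for mitosis. Within numbers 1 to 4, limma called 0 of 63 marker entries, beside 0.11% of all genes. An unadjusted p under 0.05 was found there for 15 of them, beside 9.49% of all genes. The medians there were -0.13 for macrophage, -0.39 for fibroblast and pericyte, -0.51 for lymphocyte, -0.31 for mitosis and 0.49 for endothelial. Between 30 mg/kg and 20 mg/kg, 2 of 7 cortex, 3 of 8 endothelial and 2 of 7 fibroblast and pericyte markers were called higher and 2 of 6 chromaffin and 2 of 7 macrophage markers lower, beside 12.1% of all genes. Called or not, 6 of 7 cortex, 8 of 8 endothelial, 2 of 7 fibroblast and pericyte, 3 of 6 chromaffin and 2 of 7 macrophage differences were positive. Their medians were 0.47, 0.48, -0.10, -0.01 and -0.39. The part of these shifts in the dose differences of Cdkn1b, Cdkn1a and Ccnd3 was not tested.

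Over both doses, 2 of 6 lymphocyte markers, 1 of 7 fibroblast and pericyte markers and 3 of 10 mitosis genes were lower and 1 of 8 endothelial markers higher, while 0 of 6 chromaffin, 7 cortex, 8 pituitary, 7 macrophage and 4 glial markers were called, beside 1.48% of all genes. Of these 32 uncalled markers 7 had an unadjusted p under 0.05 by limma, beside 14.4% of all genes. The lymphocyte mean was between 4.06 and 4.28 at 30 mg/kg and between 4.13 and 4.28 at 20 mg/kg, against 4.39 to 4.97 in controls. The fibroblast and pericyte mean was between 7.27 and 7.76 at 30 mg/kg and between 7.33 and 7.88 at 20 mg/kg, against 7.79 to 8.23 in controls. The mitosis mean was between 4.20 and 4.28 at 30 mg/kg and between 4.27 and 4.43 at 20 mg/kg, against 4.39 to 5.65 in controls. It ran from 4.39 to 4.84 in controls 1 to 4 and from 4.75 to 5.65 in controls 5 to 7. Within numbers 5 to 10, 5 of 10 mitosis genes were called lower (median -0.76), beside 1.19% of all genes called. Within numbers 1 to 4, 0 of 10 were called (median -0.31), beside 0.11% of all genes. These are dim genes: on average 5 of 6 lymphocyte markers and 8 of 10 mitosis genes lay below the array median. The same held for 7 of 8 pituitary genes. The macrophage mean was between 6.12 and 7.12 at 30 mg/kg and between 6.44 and 7.01 at 20 mg/kg, against 6.48 to 7.01 in controls, and the glial mean stayed between 4.76 and 5.20 in all arrays. The part of the lymphocyte, fibroblast and mitosis shifts in the fall of Ccnd1 was not tested.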

How the data were processed

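Per the submitters' processing notes, the authors made the deposited log2 values with RMA in Affymetrix Expression Console 1.3.0.187. The genome build is not given in the sources used here. Of 29214 probe sets, 15310 have 1 gene symbol in GEO's platform annotation, 323 have several and 13581 are unnamed here. The probe set with the highest mean stood for each symbol, which left 14506 genes, and array number and signal limit the precision. Groups and sex come from the labels. Models were fitted with limma 3.58.1 in R 4.3.3 (lmFit, eBayes) and checked on simulated data. Intervals are 95%.

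The members and lists were chosen with earlier results of these data known. Named are the 8 members, list genes called in treated against control or otherwise the 3 with the smallest p, and the 3 genes of highest Pearson r with each member; exceptions are marked. Motifs were searched in RefSeq windows from 250 bases before to 50 after the start (GRCr8). Alternatives covered the variance prior, array weights, normalization, filters, probe sets, sex, title numbers and each sample left out. Leaving out both replicates 3 and 4 at 30 mg/kg was chosen after seeing the data.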

Additional observations from a re-analysis of the deposited data

Results flagged for a closer look

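In 24 groups of 4 to 7 samples (8 genes in 3 groups), 3 had a sample that stood far from the others by Dixon's criterion, which chance meets in about 1 of 20 groups. Cdkn1a at 20 mg/kg had 8.41 in replicate 10, a male sample, with the next value at 7.09. Ccnd3 at 30 mg/kg had 8.48 in replicate 1, with the next value at 8.92. Ccnd3 in controls had 9.28 in replicate 1, with the next value at 8.67.

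For 3 genes the effects at the 2 doses differed by the test of the difference itself. The effect at 30 mg/kg minus that at 20 mg/kg was -0.69 for Cdkn1b, 1.31 for Cdkn1a and 0.59 for Ccnd3 on the log2 scale. These doses carry different title numbers, and the same 3 differences passed no adjusted threshold when each dose was set against the controls of its own numbers.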

How the results depend on the processing

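Of the 8 members, 1 was called over both doses (Ccnd1), and 0 under median centring, with all probe sets tested, in female samples only, at an adjusted p under 0.01, or without both replicates 3 and 4 at 30 mg/kg. Leaving out 1 sample at a time gave 0 to 1. At 20 mg/kg 1 was called, 2 with array weights, and 0 under quantile normalization, with no sex term, in females only, with the title-number set as a term, with the replicate block or within numbers 5 to 10 (0 to 2 with 1 sample left out). At 30 mg/kg 2 were called, 1 with no sex term, and 0 in females only, with the title-number set, with the replicate block, within numbers 1 to 4 or without both replicates 3 and 4 (0 to 2 with 1 left out). Between doses 3 were called, 4 (Ccnd2 added) with array weights, quantile normalization or either filter on dim genes, 2 with no sex term, and 0 in females only or without both replicates (0 to 4 with 1 left out). Between sexes 0 were called, and 1 with array weights (0 to 1 with 1 left out). The difference of the dose effects and the interaction stayed at 0 members in all alternatives run. The cause of these changes was not tested, apart from the fewer samples in some fits. No called member changed sign under any alternative.

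The numbers of genes called moved more: 215 over both doses ran between 12 and 712, 171 at 20 mg/kg between 0 and 577, 1240 at 30 mg/kg between 16 and 1541, 1752 between doses between 51 and 2366, 35 between sexes between 21 and 639, 1 in the interaction between 0 and 29 and 0 in the difference of dose effects between 0 and 1. With 1 sample left out these were 46 to 249, 22 to 470, 456 to 1563, 321 to 2172, 0 to 181, 0 to 14 and 0 to 8.

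Same-numbered treated and control samples did not deviate together (r between -0.18 and 0.08, and 0 of 7 treated samples matched the control of its own number best). Taken from the control mean of their own numbers, r ran between -0.29 and 0.23. The labels do not say whether same-numbered samples were handled together, and these correlations cannot settle it. The main fits used no pairing. With the replicate block 231 genes were called over both doses, 0 at 20 mg/kg and 72 at 30 mg/kg, and Ccnd1 differed by -0.82 (adjusted p = 0.032). No detection calls were used, so no gene is said to be above background, and Ccnd1 lies closest of the 8 to the array median.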
